A study of Mus musculus with 18 samples.

Results

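The dura mater of mast cell-deficient mice was compared 2 days after an experimental stroke with the dura of naive mice of the same strain. All 3 arrays titled as mast cell-deficient stroke and all 3 titled as mast cell-deficient naive were taken, 6 of the 18 arrays of the study. The deficient mice were WBB6F1-KitW/W-v males, which carry mutant alleles of Kit, the receptor for stem cell factor. The other categories were wild-type WBB6F1-Kit+/+ males and engrafted males, WBB6F1-KitW/W-v mice given mast cells intravenously 8 to 10 weeks earlier. Each category held 3 naive and 3 stroke mice, 1 dura per array, aged 17 to 21 weeks. Stroke was a 30-minute occlusion of the middle cerebral artery with a filament, and the naive mice were age-matched. All mice were perfused with ice-cold saline before the dura was removed. Naive mice were not operated on, so the stroke and the surgery around it cannot be told apart.

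The dura mater is the outer, collagen-rich layer of the meninges and lies between brain and skull. It holds fibroblasts, fenestrated blood vessels, lymphatic vessels, resident macrophages and mast cells, and it takes up immune cells from blood and skull marrow. Mast cells store proteases and histamine in granules and release these and cytokines after activation. Kit signalling keeps mast cells alive, so the KitW/W-v mutations remove them, but they also affect melanocytes, germ cells and blood cell precursors, and this limits the strain as a model of mast cell loss alone.

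Values were deposited on a log2 scale, so a difference of 1 is a 2-fold change of signal. Differences are stroke minus naive, each group mean rests on 3 arrays, and errors are standard errors (SE) from limma, a linear model fitted to 21640 probe sets with 1 gene symbol. A gene is said to rise or fall where its p, adjusted by the Benjamini-Hochberg method over all of them, was under 0.05. Outside the gene lists, counts of genes past the threshold are counts of probe sets, and 954 genes have more than 1. Array medians lay between 7.77 and 7.91. The mast cell label held up: Cpa3, a carboxypeptidase of mast cell granules, was 9.79, 9.13 and 9.41 in naive wild-type dura and 5.82, 5.66 and 5.80 in naive deficient dura. Mcpt4, a mast cell chymase, was 9.24, 8.99 and 9.19 in the former and 5.39, 5.82 and 5.59 in the latter. In all 6 deficient arrays both were under the lower quartiles of the arrays, 6.09 to 6.23, and the group means of 8 of 15 measured mast cell markers were too. Brain-side tissue varied between the deficient arrays. Ttr, the transthyretin gene made in choroid plexus, was 10.01, 13.73 and 9.25 in naive arrays 1 to 3 and 13.63, 9.27 and 13.58 in stroke arrays 1 to 3. Both groups thus held high and low arrays, but in unequal number: naive arrays 1 and 3 and stroke array 2 were low. The stroke minus naive difference of Ttr was 1.16 (adjusted p = 0.715 in limma). Stroke array 3 stood apart in skeletal muscle, with a mean level of 8.67 over 11 muscle markers against 7.37 to 7.69 in the other 5 deficient arrays. None of these 11 markers passed the test between stroke and naive, and results without each array are given at the end.

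In deficient dura 27 genes rose and 27 fell, together 0.25% of the probe sets tested (0.125% in each direction), and 2918 probe sets (13.5%) had an unadjusted p under 0.05. The largest rises were those of Serpina3n, a secreted protease inhibitor, Snora3, a small nucleolar RNA, and Chil1, a chitinase-like lectin. The largest falls were those of the nuclear receptors Nr4a3, Nr4a1 and Nr4a2 and of Sfrp2, Comp and Omd, which code for secreted proteins. Of these 54 genes 10 changed by at least 2-fold, 3 up and 7 down, and the smallest difference past the threshold was 0.34 in size. The median difference over all probe sets was 0.04 and the median SE 0.10. In all 54 the 3 stroke arrays lay wholly outside the range of the 3 naive arrays. Their choice by a test on the same arrays favours this, so it is no added support. Over all probe sets the stroke arrays were all higher in 13.7% and all lower in 5.92%.

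**Figure D1:**
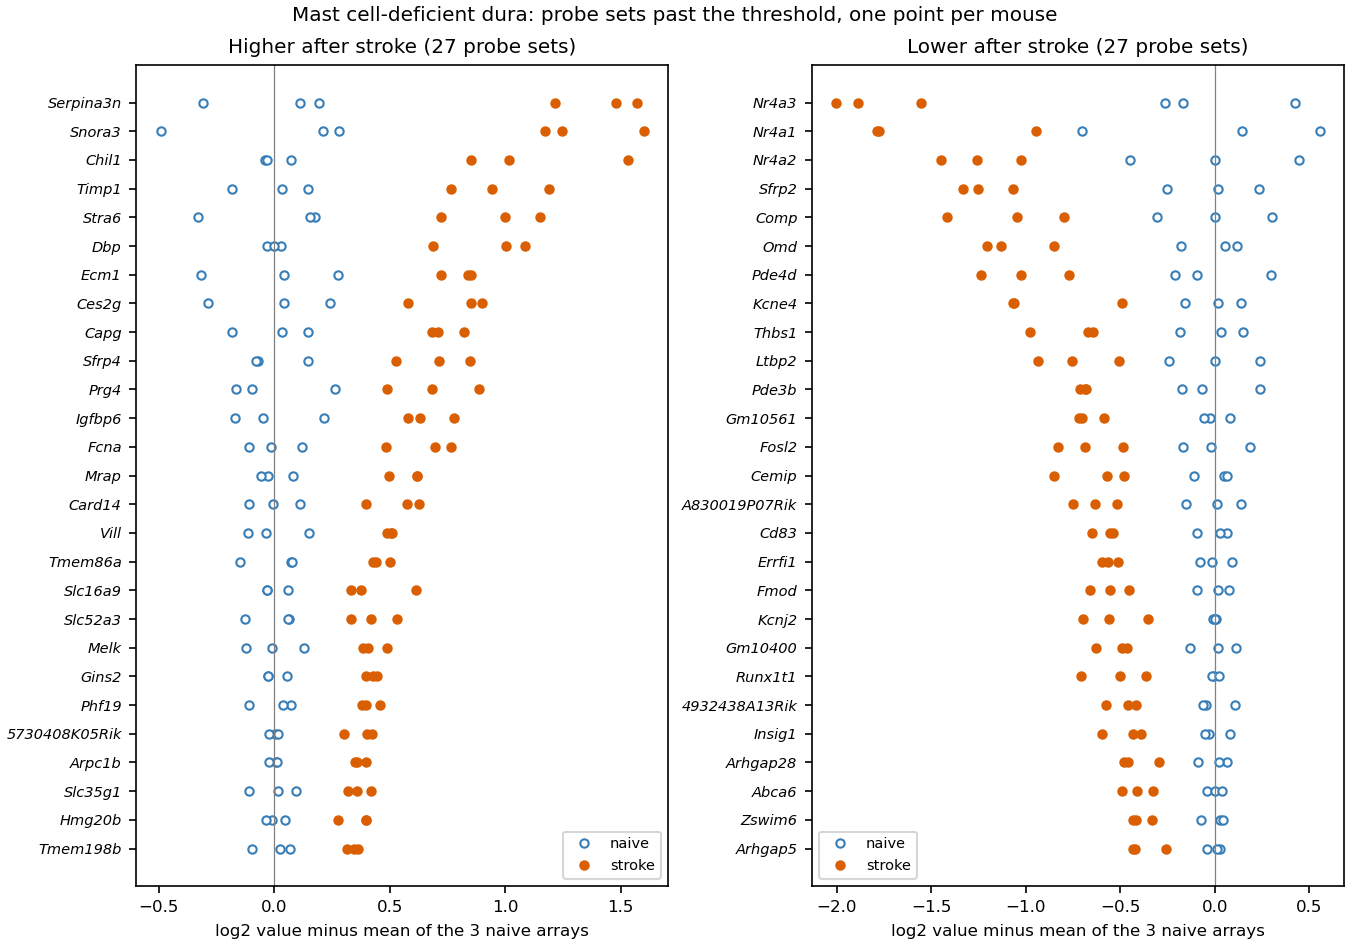
Each point is 1 deficient mouse (open, naive; filled, stroke), plotted as its log2 value minus the mean of the 3 naive arrays for each gene past the threshold, risen genes on the left and fallen genes on the right. The naive and stroke points do not overlap in any row, which the choice of these genes favours, and the widest spread among naive mice is in Nr4a1.

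Of 16 measured genes of acute phase proteins and protease inhibitors Serpina3n and Timp1 rose and none fell. Serpina3n, the mouse relative of alpha-1-antichymotrypsin, was 9.84, 9.42 and 9.92 in the naive arrays and 11.29, 10.94 and 11.20 in the stroke arrays. The lowest stroke array stood more than 1 log2 unit above the highest naive array, and the rise was 1.42 ± 0.16 (SE), or 2.68-fold (adjusted p = 0.0035). Timp1 was 11.41, 11.08 and 11.30 before and 12.45, 12.20 and 12.03 after stroke, a rise of 0.97 ± 0.13 (adjusted p = 0.00718). Chil1, the gene of the chitinase-like protein YKL-40, rose from 9.92, 9.81 and 9.82 to 11.38, 10.70 and 10.87, with stroke array 1 the highest (1.13 ± 0.19, adjusted p = 0.0216). Lcn2, a siderophore-binding acute phase protein also stored by neutrophils, was 9.12, 9.35 and 9.38 in naive and 10.58, 10.56 and 10.59 in stroke arrays. Its difference of 1.29 ± 0.26 stood just outside the threshold (adjusted p = 0.0543) although the groups were more than 1 unit apart. The median of the 16 was 0.27 against 0.04 over all probe sets. In 10 of the 16 the stroke arrays were all higher, against 13.7% of all probe sets.

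Markers of neutrophils had higher mean levels in the stroke arrays. The mean log2 level over 14 neutrophil markers was 7.29, 7.55 and 7.48 in naive and 8.06, 7.92 and 7.91 in stroke arrays, and over 11 markers of granulocyte precursors it was 7.12, 7.25 and 7.21 against 7.93, 7.77 and 8.11. None of these markers passed the threshold in limma. An unadjusted p under 0.05 was found in 5 of the 14 and 5 of the 11, against 13.5% of all probe sets. S100a8, a calcium-binding protein abundant in neutrophils, was 8.08, 8.76 and 8.40 in naive and 10.04, 9.70 and 10.28 in stroke arrays, a difference of 1.59 ± 0.44 (adjusted p = 0.18). S100a9, its partner, differed by 1.21 ± 0.38 (adjusted p = 0.23). Chil3, a chitinase-like protein of granulocyte precursors and activated macrophages, was 5.68, 5.46 and 5.48 against 7.32, 6.73 and 7.82 (1.75 ± 0.41, adjusted p = 0.119). Stroke arrays were all higher in 9 of the 14 neutrophil markers and in 10 of the 11 precursor markers, against 13.7% of all probe sets. Lcn2 is in both the acute phase and the neutrophil list. In whole tissue, more cells of a type and more RNA per cell cannot be told apart, and the part of neutrophils in the acute phase values was not tested.

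Capg, Vill and Arpc1b are risen genes whose products act on actin, put side by side after their values were seen. Capg, which caps actin filaments and is abundant in macrophages, was 8.43, 8.10 and 8.32 before and 9.10, 8.99 and 8.97 after stroke, a rise of 0.74 ± 0.10 (adjusted p = 0.00718). Vill, a villin-like actin binder, rose by 0.50 ± 0.08 (adjusted p = 0.0194). Arpc1b, a subunit of the Arp2/3 complex that branches actin, rose by 0.37 ± 0.06 (adjusted p = 0.0245), with naive arrays at 11.44 to 11.48 and stroke arrays at 11.82 to 11.87. Of 24 measured genes of phagocyte activation and scavenging Capg was the 1 that rose and none fell. The next by p were S100a4 (0.73 ± 0.19, adjusted p = 0.154), Lgals3 (0.54 ± 0.16, adjusted p = 0.2) and Tyrobp (0.32 ± 0.10, adjusted p = 0.23). The list median was 0.18. Markers of monocytes and recruited macrophages, 17 measured, had a median of 0.10, and the 13 markers of resident border macrophages a median of -0.04, with none past the threshold in either list (4 of 17 and 3 of 13 at an unadjusted p under 0.05). Fcna, a ficolin of the lectin pathway of complement, rose from 7.45 to 7.68 in naive arrays to 8.05 to 8.33 in stroke arrays (0.65 ± 0.13, adjusted p = 0.0482).

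Stra6, Ecm1, Prg4, Igfbp6 and Sfrp4 are risen genes of secreted or surface proteins, put side by side after their values were seen. Stra6, the membrane receptor through which cells take up retinol, rose from 10.73, 10.71 and 10.23 to 11.71, 11.28 and 11.56 (0.96 ± 0.16, adjusted p = 0.0216). It was the 1 riser among 13 genes of retinoic acid synthesis and binding, whose median was 0.06. Ecm1, an extracellular matrix glycoprotein, rose by 0.80 ± 0.12 (adjusted p = 0.0111), with naive arrays at 9.12 to 9.71 and stroke arrays at 10.15 to 10.28. Prg4, the joint lubricant lubricin, was 11.45, 11.02 and 11.09 before and 12.07, 11.67 and 11.87 after stroke, a rise of 0.69 ± 0.12 (adjusted p = 0.0216). Igfbp6, a binding protein for insulin-like growth factors, rose by 0.66 ± 0.13 (adjusted p = 0.0482). Sfrp4, a secreted frizzled-related protein that binds Wnt ligands, was 11.55, 11.54 and 11.76 in naive and 12.46, 12.33 and 12.14 in stroke arrays. It rose by 0.70 ± 0.10 (adjusted p = 0.0117).

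Dbp, a transcription factor driven directly by the circadian clock, was 9.11, 9.17 and 9.14 in the naive arrays and 10.14, 10.22 and 9.83 in the stroke arrays. The naive mice differed by less than 0.1 and the rise was 0.92 ± 0.13 (adjusted p = 0.0111). Dbp was the 1 clock gene of 16 that passed, and 10 of the 16 had an unadjusted p under 0.05, against 13.5% of all probe sets. Per3, a clock repressor, differed by 0.60 ± 0.14 (adjusted p = 0.12), and Arntl, which codes for the clock activator BMAL1, by -0.56 ± 0.12 (adjusted p = 0.0735), with stroke arrays at 9.31 to 9.34 and naive arrays at 9.64 to 10.02. In 5 clock genes the stroke arrays were all higher and in 4 all lower, against 13.7% and 5.92% of all probe sets. The hour of day at which each dura was taken is not given in the sources used here, and its part in these values was not tested.

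Among risen genes 2 act in cell division. Melk, a kinase of dividing cells, rose by 0.43 ± 0.08 (adjusted p = 0.0497) and Gins2, a subunit of the replicative helicase, by 0.42 ± 0.08 (adjusted p = 0.0285). Gins2 was 8.09, 8.00 and 8.00 in naive and 8.43, 8.48 and 8.46 in stroke arrays. Of 26 measured members of a separate list of cell cycle and DNA replication genes none passed in limma. An unadjusted p under 0.05 was found in 16 of the 26, against 13.5% of all probe sets. All 26 differences were positive, with a median of 0.40 against 0.04 over all probe sets. In 14 of the 26 the stroke arrays were all higher, against 13.7% of all probe sets. Cdk1, the kinase that drives mitosis, was 7.77, 7.58 and 7.95 in naive and 9.04, 8.79 and 8.07 in stroke arrays (0.87 ± 0.27, adjusted p = 0.228). The mean level of the 26 was 7.71 to 7.94 in naive arrays and 8.49, 8.40 and 7.94 in stroke arrays 1 to 3, so stroke array 3 lay at the upper end of the naive range.

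Snora3, a small nucleolar RNA that guides pseudouridylation, rose by 1.34 ± 0.23 (adjusted p = 0.0216), from 8.86, 8.79 and 8.09 to 9.82, 9.75 and 10.18. Ces2g, a carboxylesterase, rose by 0.78 ± 0.13 (adjusted p = 0.0221). Mrap, an accessory protein of the corticotropin receptor, rose by 0.58 and Card14, a scaffold of NF-kB signalling, by 0.53. The transporters Slc16a9, Slc52a3, which carries riboflavin, and Slc35g1 rose by 0.44, 0.43 and 0.36. The chromatin factors Phf19 and Hmg20b rose by 0.41 and 0.36. Tmem86a, which cleaves lysoplasmalogens, rose by 0.46, and 5730408K05Rik and Tmem198b rose by 0.38 and 0.34.

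The largest falls in deficient dura were those of the Nr4a genes. These code for orphan nuclear receptors that act as immediate early genes: they are switched on within minutes of a stimulus, partly through cAMP and the factor CREB, and switched off again soon after. Nr4a3 was 9.57, 10.26 and 9.66 in naive and 7.83, 8.28 and 7.94 in stroke arrays, a fall to 3.51-fold lower signal (-1.81 ± 0.22, adjusted p = 0.00481). Nr4a1 was 10.95, 11.36 and 10.10 against 9.02, 9.86 and 9.03 (-1.50 ± 0.26, adjusted p = 0.0245). Nr4a2 was 10.74, 11.19 and 10.29 against 9.49, 9.72 and 9.29 (-1.24 ± 0.17, adjusted p = 0.00718). Naive array 2 was the highest naive array and stroke array 2 the highest stroke array in all 3 genes. In Nr4a1 the highest stroke array came within 0.3 of the lowest naive array, and in the other 2 genes the gap was wider.

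The promoters of the 3 genes that fell together are shown because each holds the core of the cAMP response element, the sequence bound by CREB. The windows are the 250 bases before the annotated start of each gene in RefSeq, build GRCm38.p6, at chr15:101266596-101266845 (plus strand) for Nr4a1, chr2:57124004-57124253 (minus strand) for Nr4a2 and chr4:48045055-48045304 (plus strand) for Nr4a3. Capitals mark TGACG or its reverse complement.
Nr4a1: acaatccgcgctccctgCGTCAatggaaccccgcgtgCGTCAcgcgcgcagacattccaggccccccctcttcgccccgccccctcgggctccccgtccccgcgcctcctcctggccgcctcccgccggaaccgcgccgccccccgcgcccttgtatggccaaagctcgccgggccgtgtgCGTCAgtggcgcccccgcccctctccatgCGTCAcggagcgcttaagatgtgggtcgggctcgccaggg
Nr4a2: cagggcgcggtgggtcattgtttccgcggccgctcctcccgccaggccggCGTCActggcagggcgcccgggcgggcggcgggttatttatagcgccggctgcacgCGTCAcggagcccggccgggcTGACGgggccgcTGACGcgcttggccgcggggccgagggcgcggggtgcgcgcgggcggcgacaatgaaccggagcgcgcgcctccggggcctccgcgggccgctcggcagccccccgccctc
Nr4a3: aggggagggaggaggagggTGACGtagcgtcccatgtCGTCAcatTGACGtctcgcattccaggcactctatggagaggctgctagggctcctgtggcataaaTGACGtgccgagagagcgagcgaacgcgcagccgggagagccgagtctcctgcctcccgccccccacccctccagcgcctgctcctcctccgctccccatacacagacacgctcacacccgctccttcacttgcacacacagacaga
Each window holds 4 matches, counted on both strands. The match nearest the start begins 40 bases before it in Nr4a1, 111 in Nr4a2 and 147 in Nr4a3. At least 1 match was in 17.8% and at least 4 in 0.137% of 32851 promoter windows of the same length. The cutoff of 4 is the count found in these windows themselves, so the shares are a description and no test. The full element, TGACGTCA, was in none of the 3 windows and in 1.55% of all windows. A match describes the sequence and no binding was measured.

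Of 24 measured immediate early genes 4 fell and none rose. The fourth was Fosl2, an AP-1 subunit, at 9.93, 10.13 and 9.78 before and 9.26, 9.46 and 9.12 after stroke (-0.67 ± 0.13, adjusted p = 0.0451). The other 20 differed by -0.90 to 0.21 and the list median was -0.38. In 7 of the 24 the stroke arrays were all lower, against 5.92% of all probe sets. Many immediate early genes are also active in neurons, and the part of neuron content in these values was not tested on its own. The fit with covariates below adds the neuron and choroid plexus scores together and does not separate them. The mean level of 10 neuron markers was 10.38, 10.93 and 10.11 in naive and 9.76, 10.40 and 10.16 in stroke arrays. Array 2 was the highest in each group, as in the 3 Nr4a genes. All 10 differences were negative (-0.78 to -0.12), none passed and 1 had an unadjusted p under 0.05. With choroid plexus and neuron scores of each array as covariates the list median was -0.17. In that fit Nr4a3 had a difference of -1.66 (adjusted p = 0.00206), Nr4a2 of -1.14 (adjusted p = 0.00413), Nr4a1 of -1.32 (adjusted p = 0.0354) and Fosl2 of -0.61 (adjusted p = 0.0522). Among 13 measured target genes of cAMP and CREB the 3 Nr4a genes fell, none rose and the median was -0.33.

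Genes of 2 enzymes that break down cAMP also fell. Pde4d, a cAMP phosphodiesterase, has more than 1 probe set: one fell (-1.01 ± 0.17, adjusted p = 0.0216), and the brighter one differed by -0.33 ± 0.10 (adjusted p = 0.201). The first was 9.21, 9.60 and 9.09 in naive and 8.28, 8.53 and 8.07 in stroke arrays, and the second 10.40, 10.51 and 10.28 against 9.96, 10.32 and 9.94, so that the groups overlapped in the second. Pde3b, a phosphodiesterase of the insulin pathway, was 8.55, 8.65 and 8.96 before and 8.01 to 8.04 after stroke (-0.69 ± 0.13, adjusted p = 0.0422).

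Sfrp2, Comp, Omd, Fmod, Thbs1 and Ltbp2 are fallen genes of secreted or matrix proteins, put side by side after their values were seen. Sfrp2, a secreted frizzled-related protein of meningeal fibroblasts, was 11.87, 11.60 and 12.09 in naive and 10.60, 10.78 and 10.52 in stroke arrays, a fall of 1.22 on the log2 scale (SE 0.17, adjusted p = 0.00718). It moved opposite to Sfrp4. These were the 2 of 18 secreted Wnt and BMP antagonists past the threshold, and the list median was -0.01. The next by p was Chrdl1, a BMP antagonist, at 11.35, 11.37 and 11.65 against 10.66, 10.89 and 10.81 (-0.67 ± 0.15, adjusted p = 0.0806).

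Comp, a thrombospondin of cartilage and tendon that links collagen fibrils, was 10.82, 10.51 and 11.12 before and 9.77, 10.02 and 9.40 after stroke (-1.09 ± 0.18, adjusted p = 0.0216). Omd, or osteomodulin, was 10.63, 10.40 and 10.70 against 9.45, 9.73 and 9.37 (-1.06 ± 0.15, adjusted p = 0.00899). Fmod, or fibromodulin, was 12.92, 12.81 and 12.98 against 12.25, 12.45 and 12.35 (-0.56 ± 0.09, adjusted p = 0.0216). Omd and Fmod are small leucine-rich proteoglycans that coat collagen fibrils. Another of this family, Ogn, was just outside the threshold (-0.37 ± 0.07, adjusted p = 0.055). Of 15 measured genes of cartilage and tendon matrix Comp and Fmod fell, Prg4 rose, and in 6 the stroke arrays were all lower against 5.92% of all probe sets.

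Thbs1, an activator of latent TGF-beta, was 12.54, 12.33 and 12.66 in naive and 11.54, 11.84 and 11.87 in stroke arrays (-0.76 ± 0.14, adjusted p = 0.0327). Ltbp2, a protein of the fibrillin microfibrils, differed by -0.73 ± 0.14 (adjusted p = 0.0482). Thbs1 was the 1 of 17 provisional matrix and scar genes past the threshold, and the list median was -0.09. Ccn1, a matricellular protein, was 11.45, 11.07 and 11.26 against 9.97, 10.73 and 9.80 (-1.09 ± 0.28, adjusted p = 0.151), and Postn, or periostin, differed by -0.68 ± 0.23 (adjusted p = 0.255). Their groups did not overlap, but the stroke arrays were more than 0.5 apart in each. None of 17 collagen chains passed in limma, 3 had an unadjusted p under 0.05, and their median was 0.05.

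Cemip, which degrades hyaluronan, was 10.41, 10.43 and 10.25 in naive and 9.88, 9.79 and 9.51 in stroke arrays (-0.63 ± 0.11, adjusted p = 0.0282). The potassium channel genes Kcne4, an accessory subunit, and Kcnj2, an inward rectifier, fell by 0.87 and 0.54. Kcnj2 was 10.04, 10.05 and 10.04 in naive and 9.48, 9.69 and 9.35 in stroke arrays (adjusted p = 0.0216). Cd83, a surface marker of activated dendritic cells and B cells, was 9.42, 9.26 and 9.38 against 8.70, 8.81 and 8.80 (-0.58 ± 0.08, adjusted p = 0.00818). Errfi1, a feedback inhibitor of the EGF receptor, fell by 0.56 (adjusted p = 0.0216) and was the 1 of 13 glucocorticoid-induced genes past the threshold, with a list median of 0.15. Insig1, which holds back sterol synthesis, fell by 0.47 and Runx1t1, a transcriptional corepressor, by 0.52. Arhgap28 and Arhgap5 fell by 0.41 and 0.37, the transporter Abca6 by 0.41 and Zswim6 by 0.39. The less described genes Gm10561, A830019P07Rik, Gm10400 and 4932438A13Rik fell by 0.67, 0.63, 0.53 and 0.48.

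The same contrast in wild-type mice shows which of these changes were also found with an intact Kit gene. In wild-type dura 1351 genes rose (6.24%) and 1001 fell (4.63%), 10.9% of the probe sets against 0.25% in deficient dura, with the same number of arrays and the same estimate of spread. The gap depended on the model: with array weights 2635 genes passed in wild type and 1326 in deficient dura, and with the tissue scores as covariates 1592 and 212. Those weights were 4.05 for deficient naive array 1, 2.98 for stroke array 2 and 0.412 to 0.861 for the other deficient arrays. With only the compared groups in the fit 1440 and 1 passed, and with a minimum change of 1.5-fold 65 and 0. The wild-type count was 1558 without wild-type naive array 2, 1371 without naive array 3, 1555 without stroke array 2 and 1429 without stroke array 3. Of the 54 genes changed in deficient dura 53 had the same sign in wild type, and 44 passed there in the same direction, 24 up and 20 down. These are 81.5% of the genes changed in deficient dura and 1.87% of those changed in wild type. The 27 risen genes had a median difference of 0.58 in deficient and 0.83 in wild-type dura, and the 27 fallen genes of -0.63 and -0.57. Serpina3n rose by 1.75 in wild type, Nr4a3 fell by 2.08 and Sfrp2 by 1.61.

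Most changes found in wild type had the same sign in deficient dura: 2165 of the 2352 genes did. These genes were chosen for passing in wild type, which favours larger values there, so the medians that follow are a description and do not test the size of the response. The 1351 risen genes had a median of 0.44 in wild type and 0.16 in deficient dura, the 1001 fallen genes of -0.46 and -0.18. Stroke arrays of deficient mice were all higher in 588 of the former, against 13.7% of all probe sets. In 340 of the latter they were all lower, against 5.92% of all probe sets. Across all 21640 probe sets the differences in the 2 categories, which share no array, had a Pearson correlation of 0.62 and a Spearman correlation of 0.60, a description across genes, which are not independent. Between deficient and engrafted dura, which also share no array, these were 0.26 and 0.044. Of the 26 cell cycle genes 22 rose in wild type, with a list median of 0.97 against 0.40 in deficient dura. The test of the difference between the responses passed for 0 of the 26.

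There were 10 genes changed in deficient dura and not past the threshold in wild type. They are Tmem86a, 5730408K05Rik and Hmg20b among risen genes, and Zswim6, Insig1, Kcnj2, Errfi1, Cemip, Fosl2 and Pde3b among fallen genes. Kcnj2 differed by -0.02 in wild-type dura and Fosl2 by -0.07. A test of the difference between the responses passed for 1 of the 10, Cemip, whose wild-type difference was 0.27 (deficient minus wild type -0.91 ± 0.16, adjusted p = 0.0209). For Kcnj2 this test gave -0.51 ± 0.13 (adjusted p = 0.138) and for Fosl2 -0.59 ± 0.18 (adjusted p = 0.277), so a difference between categories was not shown for these.

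**Figure D2:**
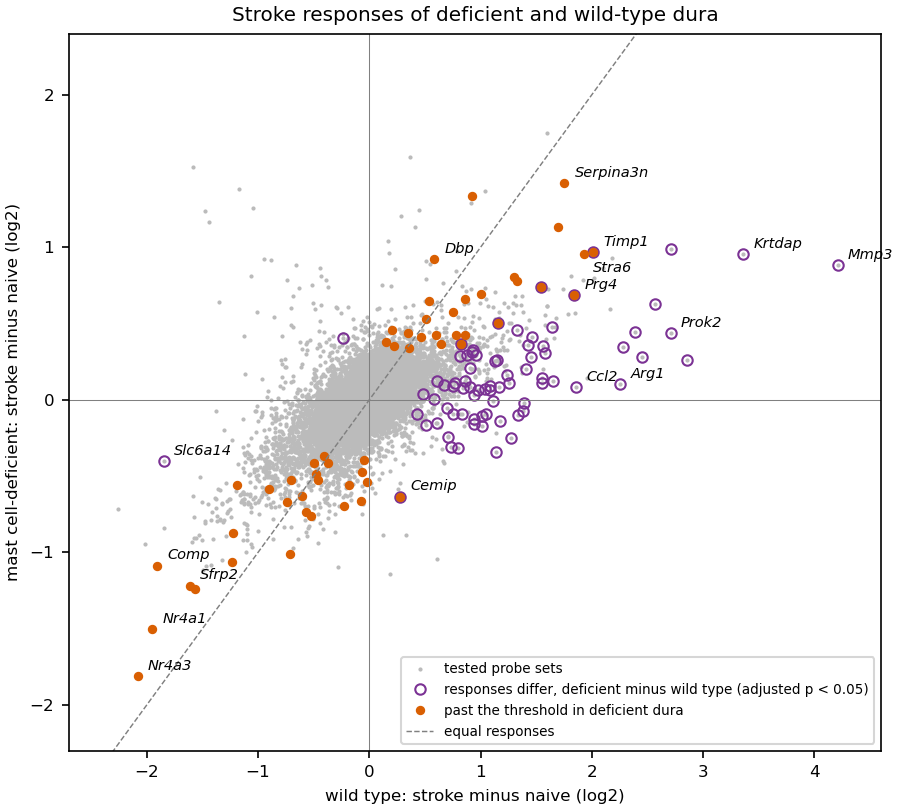
Each grey point is 1 probe set, with its stroke minus naive log2 difference in wild-type dura on the horizontal axis and in mast cell-deficient dura on the vertical axis. Filled points passed the threshold in deficient dura, ringed points had responses that differed between the categories, and the dashed line marks equal responses. All but 2 of the 76 rings lie below the line, with Mmp3 farthest to the right at 4.21 in wild type and 0.88 in deficient dura.

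The response to stroke differed between deficient and wild-type dura in 76 genes (0.351%), by the interaction term of the same fit. In 74 of them (0.342%) deficient minus wild type was below 0 and in 2 (0.00924%) above, and 7.35% of probe sets had an unadjusted p under 0.05. The count was 34, 117 and 43 without deficient naive array 1, 2 and 3, 38 and 31 without deficient stroke array 2 and 3, 41 without wild-type naive array 3 and 44 without wild-type stroke array 2. It was 6 without the 5 arrays lowest in Ttr. Of the 74, 73 rose in wild type. Their median difference was 1.12 in wild type, 0.11 in deficient and 0.32 in engrafted dura, and 52 of the 74 were above 0 in deficient dura. The 74 were chosen for this difference, which favours high wild-type and low deficient values. Their counts and medians are thus a description and do not test deficient against wild-type or engrafted dura. Of the 54 genes changed in deficient dura 6 were among the 76: Prg4, Capg, Timp1, Vill and Arpc1b, which rose in both categories and by more in wild type, and Cemip. Timp1 rose by 2.01 in wild type and 0.97 in deficient dura (-1.04 ± 0.18, adjusted p = 0.0209), and Capg by 1.54 and 0.74 (-0.80 ± 0.14, adjusted p = 0.0191).

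Mmp3, a metalloproteinase that cleaves matrix and activates other metalloproteinases, had the largest such difference. In deficient dura it was 6.76, 6.73 and 6.98 before and 8.21, 7.56 and 7.34 after stroke, so all stroke mice were higher, by 0.88 ± 0.18 (adjusted p = 0.0543). In wild-type dura it went from 6.72, 6.91 and 6.79 to 10.83, 11.09 and 11.12, a rise of 4.21. The responses differed by -3.32 ± 0.25 (adjusted p = 8.19e-06). Arg1, the arginase of alternatively activated myeloid cells, was 6.17, 6.23 and 6.17 in naive and 6.20, 6.28 and 6.40 in stroke arrays of deficient mice, groups that were 0.10 ± 0.11 apart (adjusted p = 0.69). In wild type it rose by 2.26, and the responses differed by -2.16 ± 0.16 (adjusted p = 8.19e-06). Both the naive and the stroke values of Arg1 in deficient dura lay near the lower quartile of the arrays.

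Ccl2, the chemokine that draws monocytes, was 7.83, 7.88 and 8.07 in naive and 8.03, 8.04 and 7.96 in stroke arrays of deficient mice, and the groups overlapped (0.08 ± 0.20, adjusted p = 0.861). In wild type it rose by 1.86 (deficient minus wild type -1.78 ± 0.28, adjusted p = 0.00973). Prok2, a secreted protein made by neutrophils, differed by 0.44 ± 0.18 in deficient dura (adjusted p = 0.309) and rose by 2.71 in wild type (-2.27 ± 0.25, adjusted p = 0.000695). Socs3, a feedback inhibitor of interleukin 6 signalling through STAT3, differed by 0.41 ± 0.11 (adjusted p = 0.18) and rose by 1.46 in wild type (-1.05 ± 0.16, adjusted p = 0.00774). Serpinb9b, Raet1d, Reg3g, Krtdap and Tgm1 differed by 0.28, 0.63, 0.26, 0.96 and 0.35 in deficient dura, none past the threshold, and rose by 2.28 to 3.36 in wild type. Msln, the surface protein mesothelin, was 8.55, 8.11 and 8.16 against 9.55, 8.73 and 9.50 (0.99 ± 0.20, adjusted p = 0.0618) and rose by 2.71 in wild type. The 2 genes with a difference above 0 were Slc6a14, an amino acid transporter that fell by 1.85 in wild type and differed by -0.40 ± 0.15 in deficient dura, and the less described Gm10706.

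**Figure D3:**
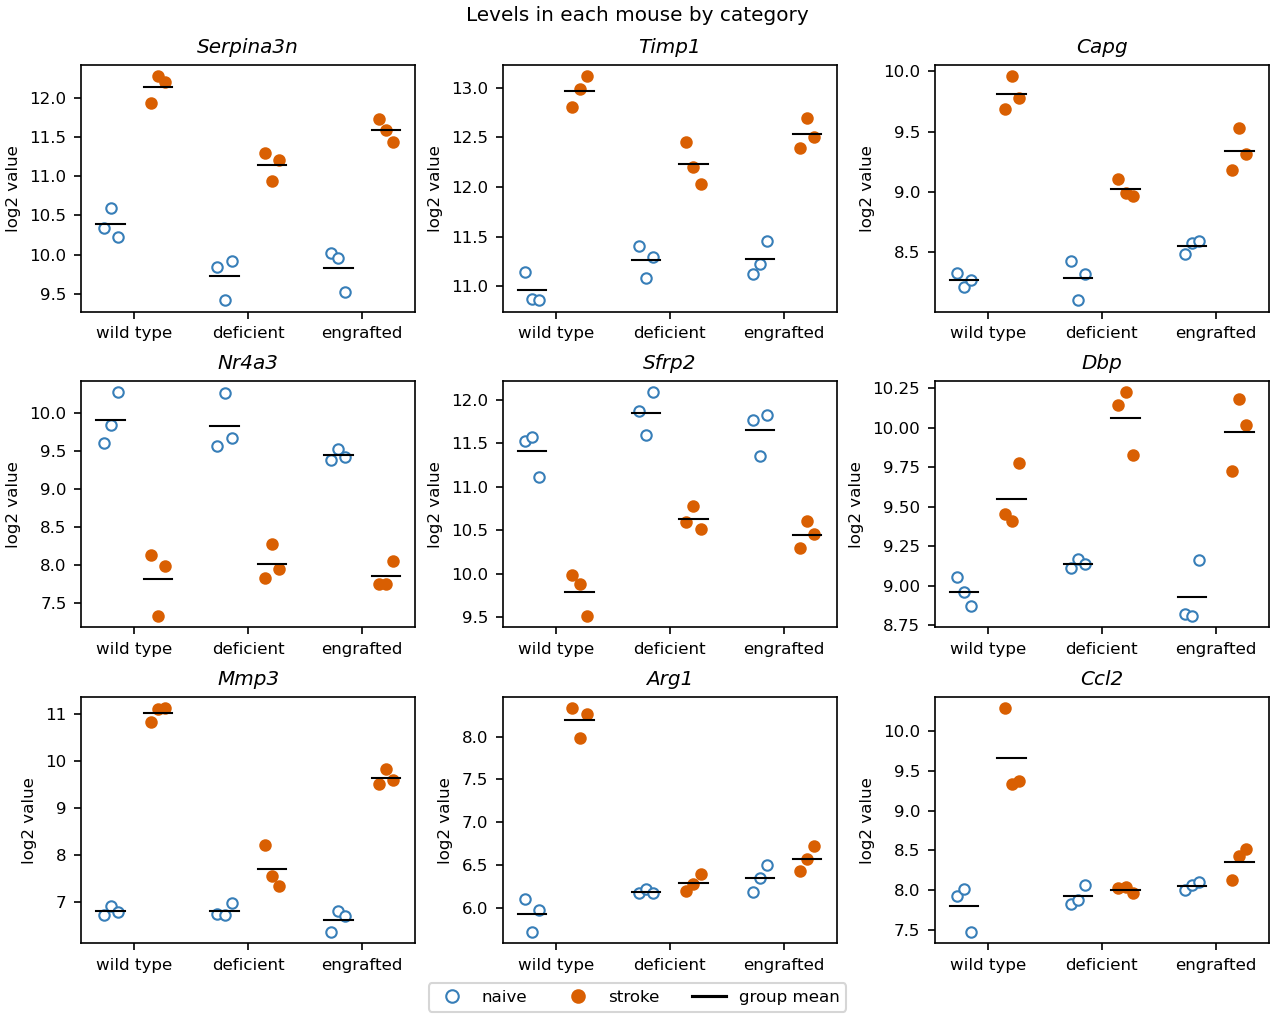
Log2 values of 9 genes in each of the 18 mice by category (open, naive; filled, stroke; bar, group mean), each panel with its own vertical scale. Serpina3n, Nr4a3 and Sfrp2 separate naive from stroke mice in all 3 categories, while stroke values of Mmp3, Arg1 and Ccl2 in deficient dura stay below all 3 wild-type stroke values.

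Engrafted mice have the same Kit genotype and received mast cells. In their dura 190 genes rose (0.878%) and 51 fell (0.236%), together 1.11%, a count that was 70 and 60 without engrafted naive array 1 and 2 and 396, 76 and 88 without engrafted stroke array 1, 2 and 3. Of the 54 genes changed in deficient dura 51 had the same sign there and 25 passed in the same direction, 46.3% of the deficient genes and 10.4% of the engrafted ones. The share with the same sign over all probe sets was not counted here either. All 25 also passed in wild type. They include Serpina3n, which rose by 1.75, Timp1, which rose by 1.26, Nr4a3, which fell by 1.59, and Sfrp2, which fell by 1.20. A test of engrafted minus deficient responses passed for 1 probe set, Mmp3 (0.00462%), and 2097 probe sets (9.69%) had an unadjusted p under 0.05. Mmp3 rose from 6.36, 6.81 and 6.70 to 9.51, 9.84 and 9.59 in engrafted dura, by 3.02, and the responses differed by 2.14 (adjusted p = 0.00683). For Arg1, Ccl2 and Prok2 the differences in engrafted dura were 0.23, 0.30 and 0.76.

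Other lists had no gene past the threshold in deficient dura by limma. These were 17 CC chemokines and receptors (median 0.11), 14 CXC chemokines and receptors (median 0.02), 10 genes of MHC class II presentation (median -0.07), 14 complement genes (median 0.18), 14 interferon-stimulated genes (median 0.04), 16 hypoxia-induced genes (median 0.03) and 17 genes of the interleukin 6 and STAT3 pathway (median 0.11). Of these 7 lists the complement genes had 9 of 14 with an unadjusted p under 0.05, against 13.5% of all probe sets. The first and the last list had 3 each, the CXC, MHC class II and interferon lists 1 each and the hypoxia list 0. In wild-type dura 9 genes of the interleukin 6 and STAT3 list rose. Of the 14 complement differences 9 were positive and 5 negative. Stroke arrays were all higher in 5 of these genes and all lower in 2, against 13.7% and 5.92% of all probe sets. C4b, a complement component, was 9.66, 9.39 and 9.78 in naive and 9.99 to 10.00 in stroke arrays (0.38 ± 0.09, adjusted p = 0.139). Among 18 matrix metalloproteinases and their inhibitors Timp1 rose and none fell, and in 5 of the 18 the response differed from wild type. Markers of meningeal fibroblasts (17 measured, median -0.06), endothelium (13, median 0.19) and T and NK cells (11, median 0.11) had no gene past the threshold and 2, 2 and 1 at an unadjusted p under 0.05. Choroid plexus markers had a median of 0.74 over 9 genes, with mean levels of 9.18, 11.75 and 8.98 in naive and 11.46, 8.99 and 11.45 in stroke arrays, and in none did the groups separate.

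**Figure D4:**
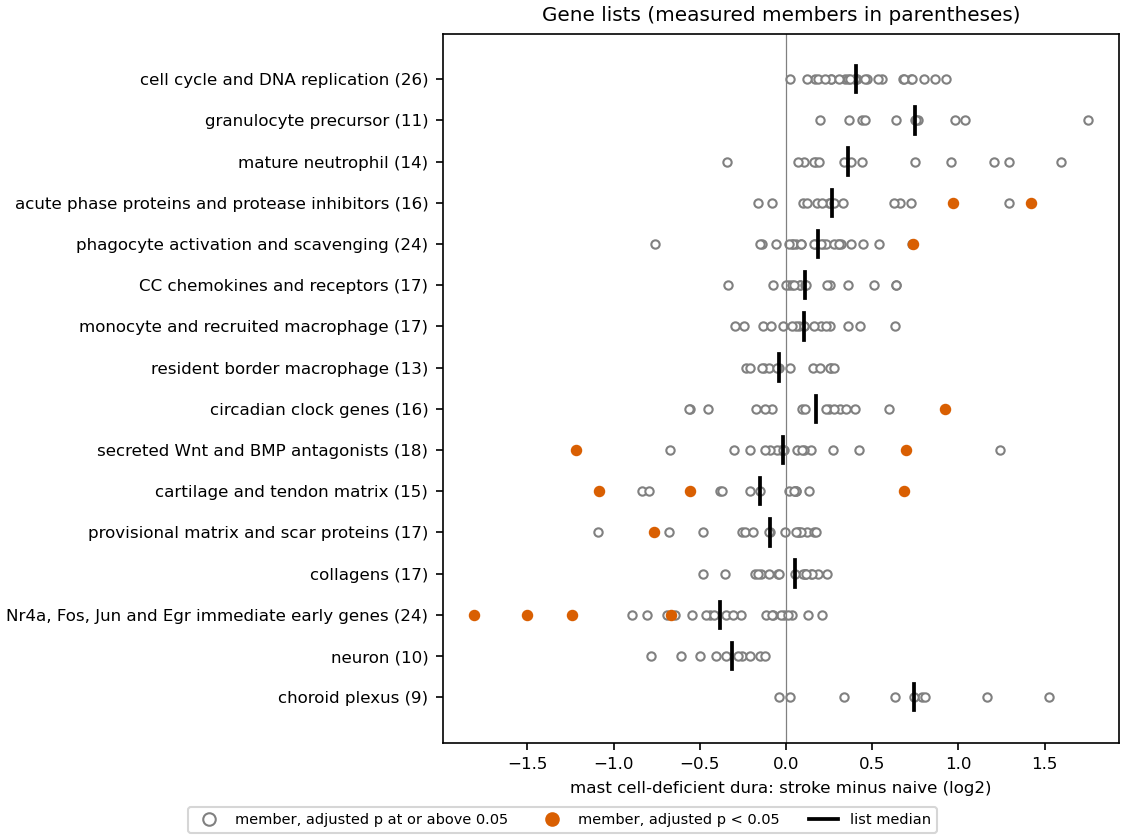
Each point is 1 measured gene of a list, placed by its stroke minus naive log2 difference in deficient dura (filled, past the threshold; open, not past it), and black bars mark list medians. All 26 cell cycle genes lie at or above 0, the Nr4a genes lie farthest to the left, and the 9 choroid plexus genes spread widely with none past the threshold.

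Which genes pass depended on single mice. With 1 of the 6 deficient arrays left out, 8 to 30 genes passed: 30, 27 and 16 without naive array 1, 2 and 3, and 8, 23 and 11 without stroke array 1, 2 and 3. Serpina3n, Timp1, Capg, Nr4a2, Nr4a3 and Sfrp2 passed in each of these 6 fits, and Sfrp4, Cd83 and Dbp in 5 of them, all but the fit without stroke array 1. With only the 6 deficient arrays in the fit, Lcn2 passed (adjusted p = 0.0258) and none of the 54 did. Serpina3n and Nr4a3 then had an adjusted p of 0.146 and Timp1 of 0.182. An exact permutation test of 3 against 3 mice cannot go below 0.1. Without the 5 arrays lowest in Ttr, 3 of them deficient, 8 of the 54 genes passed. That fit has 1 naive and 2 stroke deficient mice.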

How the data were processed

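Total RNA of 18 dura samples was hybridised to single-channel Affymetrix arrays, 1 array per mouse. The table holds the authors' deposited log2 values for 34760 probe sets. The submitters' processing notes list R 3.0.0, RMA and affy and leave their roles open. Scan dates and batches are not given in the sources used here. No scanner files were used, so the background correction and normalization were kept as deposited. That the values are on a log2 scale was taken from their range, 3.42 to 14.06. Intensities below background cannot be recognised in such a table, and the number of arrays limits the precision.

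Probe sets were named through the platform annotation: 21640 have 1 gene symbol (19937 genes), 1321 have several and 11799 are not named in it. limma 3.58.1 (R 4.3.3) fitted 1 mean for each of the 6 groups over all 18 arrays, since 3 against 3 arrays leave few residual degrees of freedom. Stroke was contrasted with naive within each category, and the responses were compared by interaction contrasts. Moderated p-values were adjusted by Benjamini-Hochberg within each comparison over 21640 probe sets, and called under 0.05 whatever the size of the change. Where a gene has several probe sets, lists use the one with the highest mean over all arrays. The scripts were tested on simulated data.

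The gene lists, the mice compared and the genes to name were chosen with earlier results of these data known, so lists are described by counts and medians and have no p of their own. The text names every probe set past the threshold in deficient dura. Other names were drawn, without using all of them, from up to 4 members of a list with the smallest p, the 10 rising and 10 falling most in wild type, at most 10 genes in each direction whose responses differed, the 5 next by p, and a few fixed markers. List genes were matched by current symbol, and by an older name only where it is no other gene's current symbol. Promoter windows are RefSeq sequences of GRCm38.p6. Of the 54 changed genes 41 matched 49 windows, and both strands were searched for the cAMP response element (TGACGTCA), its core (TGACG, which the full element contains), an AP-1 site (TGANTCA), a STAT site (TTCNNNGAA) and an E-box (CACGTG). The alternatives tried were leaving out each array, only the compared groups, the replicate number as a block, a second quantile normalization, a filter on dim probe sets, trended and robust variance, array weights, all probe sets, a minimum change of 1.5-fold, tissue scores as covariates, and leaving out the 5 arrays lowest in Ttr. Where leaving out arrays leaves 1 in a group, that array is assumed to vary like the other groups. No sample was dropped or imputed otherwise.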

Additional observations from a re-analysis of the deposited data

Results flagged for a closer look

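These results are listed because the test of the difference between 2 stroke responses passed (limma interaction, adjusted p under 0.05). The values are deficient minus wild type unless stated, on the log2 scale. Among genes that rose in deficient dura the difference was -1.15 for Prg4, -1.04 for Timp1, -0.80 for Capg, -0.65 for Vill and -0.46 for Arpc1b. Each of these rose in both categories, by more in wild type. For Cemip, which fell in deficient dura, it was -0.91.

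Among genes that did not pass in deficient dura, the difference was -3.32 for Mmp3, -2.59 for Reg3g, -2.41 for Krtdap, -2.27 for Prok2, -2.17 for Serpinb9b and -2.16 for Arg1. It was -1.94 for G530011O06Rik, -1.93 for Raet1d, -1.93 for Tgm1 and -1.78 for Ccl2. All 10 rose in wild type. The difference was above 0 for Slc6a14 (1.45), which fell in wild type, and for Gm10706 (0.64), which passed in neither category. For engrafted minus deficient it was 2.14 for Mmp3, with stroke values of all 3 engrafted mice above all 3 deficient mice.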

How the results depend on the processing

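All 54 genes changed in deficient dura kept their direction under every alternative in which they were tested (50 of them were in the test without dim probe sets), while the count past the threshold moved. In deficient dura it was 1326 with array weights (832 higher, 494 lower, with all 54 kept), 212 with tissue scores as covariates (51 kept), 15 without the 5 arrays lowest in Ttr, 1 with only the compared groups, 0 with a minimum change of 1.5-fold, and 8 to 30 with 1 array left out. For wild type it was 65 with the minimum change, 1440 with only the compared groups, 1368 without the low-Ttr arrays and 1371 to 2211 with 1 array left out. For engrafted dura it was 152 with all probe sets, 394 with array weights, 519 with covariates, 2 with the minimum change, 33 with only the compared groups, 98 without the low-Ttr arrays and 60 to 396 with 1 array left out. For deficient minus wild type it was 305 with array weights, 4 with the minimum change, 6 without the low-Ttr arrays and 31 to 117 with 1 array left out. For engrafted minus deficient it was 2 with array weights, 3 with covariates, 0 with the minimum change, with only the compared groups or without the low-Ttr arrays, and 1 in each fit with 1 array left out. With the replicate number as a block 17 genes passed in deficient dura (15 of the 54), 1975 in wild type, 147 in engrafted dura, 22 for deficient minus wild type and 0 for engrafted minus deficient. The deviations of same-numbered arrays correlated at -0.005, -0.298 and -0.392 in deficient, -0.182, 0.048 and 0.033 in wild-type and 0.0095, 0.149 and 0.603 in engrafted dura. In no category were all 3 over 0.1, so the numbers were not taken as pairs. The cause of these moves was not tested, beyond the fewer arrays or added terms that define them. Among genes named for their levels, the difference of Cpa3 (-0.01) was -0.065 to 0.021 with 1 array left out, above 0 without naive array 1, naive array 3 or stroke array 1, and without the low-Ttr arrays Cpa3 was 0.051, Mcpt4 -0.0063, Ttr -0.124 and G530011O06Rik -0.070. Lcn2 passed in 3 alternatives and Mmp3 in 3, array weights apart. Signal over background is not given, and 3 mice per group limit every count.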

Other observations

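Probe sets without a gene name also responded. With all 34760 probe sets in the test, 52 passed in deficient dura, and 13 of these are outside the 21640 with 1 gene symbol, 5 higher and 8 lower after stroke.

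Other cell types in the deficient arrays are given here as values. Platelet and megakaryocyte markers had mean levels of 8.76, 8.71 and 8.41 in naive and 8.66, 8.82 and 9.14 in stroke arrays. Adipocyte markers were between 7.34 and 7.51 in all 6 arrays, and melanocyte markers between 7.23 and 7.42.

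The 4 matches of TGACG in each Nr4a promoter were not shared by every fallen gene. The windows of Fosl2, Pde4d and Sfrp2 held none. Those of the fallen genes Gm10561, Kcne4, Zswim6 and Insig1 held 1 each. Of 2 windows of Errfi1, which also fell, 1 held the full element TGACGTCA and with it 2 matches of TGACG. The window of Dbp held no CACGTG, the E-box bound by clock factors, which was in 6.02% of all windows, and that of Serpina3n held no TTCNNNGAA, the letters of a STAT site, which were in 7.02%. That of Timp1 held no TGANTCA, the letters of an AP-1 site, found in 6.75% of windows. No binding was measured, and these counts describe only the 250 bases before each start.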
